A study of Mus musculus with 6 samples.

Results

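Splenic CD4 cells of mice given angiotensin II were described from the 3 CD4 columns of a normalised count table, libraries 385, 393 and 395, out of 6 libraries in all. They were chosen by the CD4 in their column names, with no use of expression values. The other 3 libraries hold CD8 cells, and only their own spread is used here, at the end. All mice were C57BL/6 and were treated with angiotensin II through a subcutaneous osmotic mini-pump, and spleen cells were then sorted on CD4 by flow cytometry. The sources used here give no dose, duration, age or sex. Libraries of untreated mice were not used here, so nothing below measures a response to angiotensin II. The labels do not say that each number marks a separate mouse, so the spread between libraries may be partly technical.

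CD4 T cells recognise peptides on MHC class II molecules and direct other immune cells through cytokines and through CD40 ligand. In the spleen most are naive cells that recirculate between blood and lymphoid tissue, beside regulatory cells kept in their state by Foxp3 and smaller Th1, Th2, Th17 and follicular helper populations. Angiotensin II is the peptide hormone that raises blood pressure, and T cells are studied as contributors to that form of hypertension.

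The 3 CD4 libraries held 14280813, 10264246 and 11266570 reads in genes (385, 393 and 395), and 17590, 17545 and 17007 of 17832 genes had at least 1 read. A value below, called normalised reads, is a read count divided by the library's size factor, so that 3 reads are worth 2.57, 3.34 and 3.19 normalised reads in 385, 393 and 395. Levels of different genes were compared only per kb of summed exon length, with ranks among 17568 genes of known length. Spread is the highest library over the lowest, each value plus 1, for the 9924 genes with a mean of 100 or more: the median gene had a spread of 1.35. A gene is called variable at a spread of 2 or more, which 11.7% of the 9924 genes reached, and steady where the highest library was at most 25% above the lowest, which held for 34.6%. Over pairs of libraries 534, 511 and 706 genes were variable without 385, 393 and 395, against 1162 over all 3. Of the 9924 genes, 38.0%, 33.9% and 28.0% were highest in 385, 393 and 395. With 1 group of 3 libraries there is no contrast, so every count below is a description without a test.

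Of the 4 genes that mark the sorted cells, all were present in each library, and all 4 were highest in 393 and lowest in 385, an order shared by 22.9% of all 9924 genes. Cd4, the co-receptor used for the sort, had 4065, 6313 and 5402 normalised reads in 385, 393 and 395, a spread of 1.55. Per kb it averaged 1305 ± 280.4 normalised reads (SD, n = 3), rank 344 of 17568. Cd40lg, the CD40 ligand that helper cells show to B cells and dendritic cells, had 332, 744 and 522 normalised reads. Its 2.24-fold spread made it the variable marker, and per kb it averaged 426 ± 165 (rank 1538, but 3245 when only coding length was used).

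Zbtb7b, the factor that commits T cells to the CD4 lineage, had 1224, 1500 and 1439 normalised reads and was the steady marker, with a spread of 1.23. Foxp3, the factor that defines regulatory T cells, had 585, 986 and 835 normalised reads, a spread of 1.69. Per kb, Zbtb7b averaged 248 ± 25.9 and Foxp3 175 ± 44.3 normalised reads (SD, n = 3 each), ranks 2921 and 4146. In every library the order per kb was Cd4, Cd40lg, Zbtb7b, Foxp3. The values of Cd40lg and Zbtb7b overlapped across libraries, since Cd40lg had 266 per kb in 385 and Zbtb7b 268 per kb in 393, while Foxp3 stayed below the lowest Zbtb7b value.

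RefSeq promoter windows of GRCm38.p6, 250 bases before to 50 after the annotated start, were matched for 2 of the 4 markers and are shown because they belong to the lineage factors among the markers. The Zbtb7b window is at chr3:89393329-89393628 on the minus strand and the Foxp3 window at chrX:7579426-7579725 on the plus strand. Capitals mark the ETS core GGAAGT on the strand shown.
Zbtb7b: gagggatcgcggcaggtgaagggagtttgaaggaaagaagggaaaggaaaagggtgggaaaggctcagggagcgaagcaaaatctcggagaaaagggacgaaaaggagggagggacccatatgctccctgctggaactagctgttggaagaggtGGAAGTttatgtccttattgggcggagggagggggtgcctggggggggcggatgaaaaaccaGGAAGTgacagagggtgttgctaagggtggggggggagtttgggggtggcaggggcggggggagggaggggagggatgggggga
Foxp3: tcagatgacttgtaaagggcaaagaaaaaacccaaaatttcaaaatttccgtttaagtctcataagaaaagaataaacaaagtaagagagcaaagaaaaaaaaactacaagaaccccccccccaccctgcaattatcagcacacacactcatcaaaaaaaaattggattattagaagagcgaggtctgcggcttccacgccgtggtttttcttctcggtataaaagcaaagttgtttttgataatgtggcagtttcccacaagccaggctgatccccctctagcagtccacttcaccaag
The search covered GGAAGT, the RUNX core TGTGGT and the TCF/LEF core CTTTGA on both strands. GGAAGT occurred 2 times in the Zbtb7b window and the others not at all, and none of the 3 occurred in the Foxp3 window. Of 32851 windows of this length, 23.8% held GGAAGT, 16.8% TGTGGT and 16.0% CTTTGA, so these matches are a description of the letters only. Each gene has 2 windows in the table, and the more upstream is printed.

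The libraries also held transcripts of cells that a CD4 sort should leave out. The 15 macrophage and monocyte genes summed to 40054, 37309 and 7934 normalised reads in 385, 393 and 395, with all 15 above 0 in each library. The 13 erythroid genes summed to 84545, 38919 and 59985, and all were above 0. These include Car1 and Car2, the red cell carbonic anhydrases, at ranks 17 and 49 per kb. The 11 neutrophil genes summed to 11505, 1907 and 433. Ly6g, the surface marker of neutrophils, was at 0 in 393 and 395, and Ltf and Mmp8 were at 0 in 395. The neutrophil sum averaged 4615 ± 6012 normalised reads (SD, n = 3), and 385 carried most of it.

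Ighm, the constant region of IgM, supplied 97.8% of the B cell sum of 106600, 96826 and 80623 normalised reads. Per kb it averaged 49081 normalised reads, rank 3 of all genes, while Cd79b, part of the B cell receptor, averaged 250.2 per kb. Cd79b had 289, 479 and 305 normalised reads, highest in 393, where Ighm was not. The 7 plasma cell genes summed to 31206, 23283 and 21122. Most of that sum came from Igha, the constant region of IgA, and Jchain, the chain that joins IgA and IgM. The 15 dendritic cell genes summed to 11695, 12975 and 4372, led by the MHC class II invariant chain gene Cd74.

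The 10 natural killer genes summed to 2495, 2762 and 843 normalised reads, with Klra8 at 0 in 395. The 7 platelet genes summed to 1076, 1267 and 1397, of which 79.5% was Itgb3, with 2 of the 7, Ppbp among them, at 0 in 395. The 6 measured endothelial and stromal genes summed to 1228, 1996 and 1527, of which 95.7% was Pecam1, with Cdh5 at 0 in 395. The 4 CD8 lineage genes summed to only 277, 472 and 315 normalised reads. Of this sum 49.2% was Eomes, which is also counted among the 10 natural killer genes. Cd8a itself had 30.0, 36.8 and 7.45 normalised reads, and Cd8b1 had 63.3, 108 and 73.4. The 6 genes of gamma delta and invariant T cells summed to 1061, 1278 and 953. In these bulk samples, fewer cells of a type and less RNA per cell cannot be told apart, and the part of these other cells in the levels below was not tested except where a value is given. Mouse spleen also has dendritic cells that carry CD4.

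**Figure D1:**
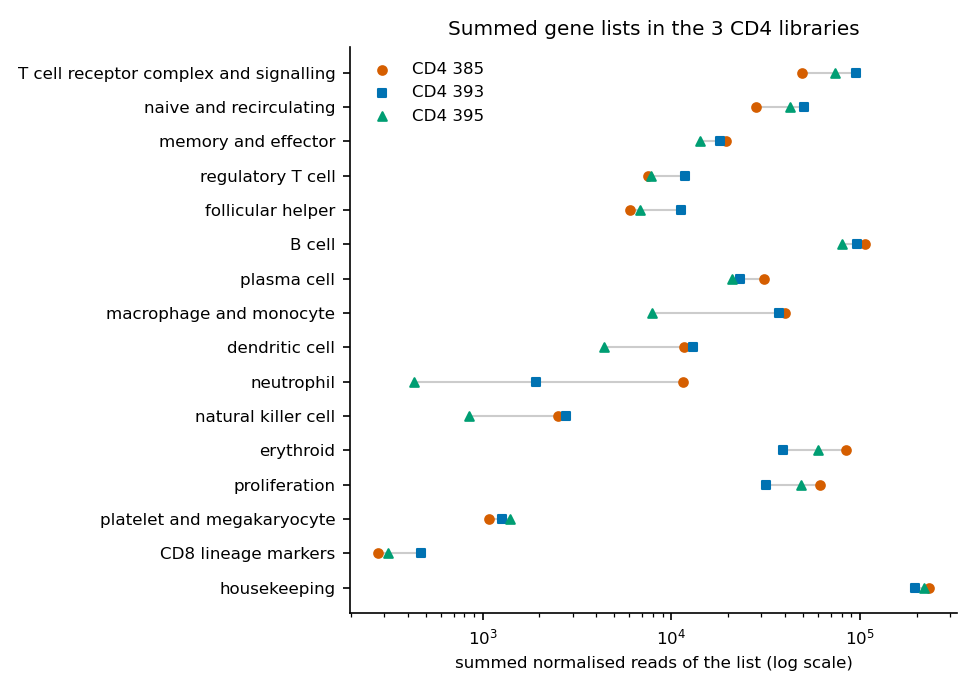
Summed normalised reads (log axis) of 16 gene lists in CD4 libraries 385, 393 and 395, 1 point per library with a grey line from the lowest to the highest. T cell receptor genes are highest in 393 (95427), erythroid (84545) and proliferation genes (61559) in 385, and macrophage genes are lowest in 395 (7934).

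The lists were arranged differently across the libraries, and 3 of them are described first. T cell genes were highest in 393: among 20 genes for the T cell receptor and its signalling, 19 had the order 393, 395, 385 (22.9% of all genes), and their sum was 49411, 95427 and 73882 normalised reads in 385, 393 and 395. Proliferation genes ran the other way, with 14 of 15 in the order 385, 395, 393 (28.6% of all genes) and a sum of 61559, 31936 and 48666, and all 15 were lowest in 393 (46.2% of all genes). Macrophage and monocyte genes were all 15 variable (11.7% of all genes) and all 15 lowest in 395, where 20.5% of all genes were lowest.

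Among the proliferation genes, Pcna, the replication clamp, had 5936, 3118 and 4117 normalised reads and the highest level per kb, 1829. Mki67, the classical marker of cycling cells, had 13615, 9613 and 11485 normalised reads and the smallest spread of the list, 1.42. Rrm2, a subunit of the enzyme that makes deoxynucleotides, had 5903, 2245 and 3934 and the largest, 2.63. The erythroid list was highest in 385 for 12 of 13 genes (38.0% of all genes), and lowest in 393 for 7 and in 395 for 6. The erythroid and proliferation sums were both highest in 385 and lowest in 393. Which cells made the proliferation transcripts was not tested. Hba-a1 with Hba-a2, and Hbb-bt with Hbb-bs, are near-identical pairs, and how reads were shared within each pair is uncertain.

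The T cell receptor genes spanned a narrow range of spread, from 1.50 for Cd28 to 2.30 for Trbc1. Of the 20, 6 were variable (30.0%, against 11.7% of all genes) and none steady (34.6% of all genes). Per kb, the constant regions led. Trbc2, of the beta chain, had 2686, 5942 and 4637 normalised reads (6390 per kb, rank 56). Trac, of the alpha chain, had 3329, 6614 and 5479 normalised reads (5498 per kb, rank 68). Trbc1 had 1536, 3531 and 2728 normalised reads, but the beta constant regions are near-identical and the split between them is uncertain. Lck, the kinase that starts receptor signalling, had 3711, 6643 and 5608 normalised reads (1816 per kb, rank 236). All were lowest in 385 and highest in 393.

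Ptprc, the CD45 phosphatase of all white blood cells, made up 22.7% of the summed list, and the other members are mostly T cell genes. A second scale was therefore used beside the deposited one, normalised reads per 1000 of this sum in the same library. On it, Cd4 had 82.3, 66.2 and 73.1 in 385, 393 and 395, Cd40lg 6.72, 7.80 and 7.07, and Foxp3 11.8, 10.3 and 11.3. These 3 markers were steady on that scale, with spreads of 1.24, 1.16 and 1.14. Zbtb7b was not, at 24.8, 15.7 and 19.5 per 1000, a spread of 1.58. On this scale 55.1% of the 9924 genes were variable and 5.91% steady. These counts cannot judge which scale is better, since the deposited factors are set by the median ratio over genes and this divisor is not. The divisor was itself highest in 393 and lowest in 385, so genes with that order tend to spread less on this scale.

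Among 67 transcription factors in 3 lists, Tcf7, the TCF-1 protein of naive and memory T cells, stood first per kb. Tcf7 had 6378, 14263 and 11811 normalised reads, 4121 ± 1537 per kb (SD, n = 3), rank 93 of all genes. In 393 and 395 it was far above 385, a spread of 2.24 that became 1.24 per T cell receptor reads. Junb, an AP-1 subunit, followed with 3383, 7379 and 5511 normalised reads (2357 per kb), and its spread of 2.18 became 1.13 per T cell receptor reads.

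Ikzf1, the Ikaros factor of all lymphoid cells, came next per kb with 7540, 7607 and 8571 normalised reads (1369 per kb). It was steady on the deposited scale, with a spread of 1.14, and had a spread of 1.91 per T cell receptor reads. Ets1, an ETS factor needed for T cell survival, followed with 7507, 12487 and 10760 normalised reads (1209 per kb). Jund, Myc, Klf2, Tcf3, Fos and Stat6 filled places 5 to 10, between 980.3 and 575 normalised reads per kb. The ranges of the first 4 overlapped with their neighbours: Ikzf1 lay between 1305 and 1484 per kb, and Ets1 between 886 and 1473.

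**Figure D2:**
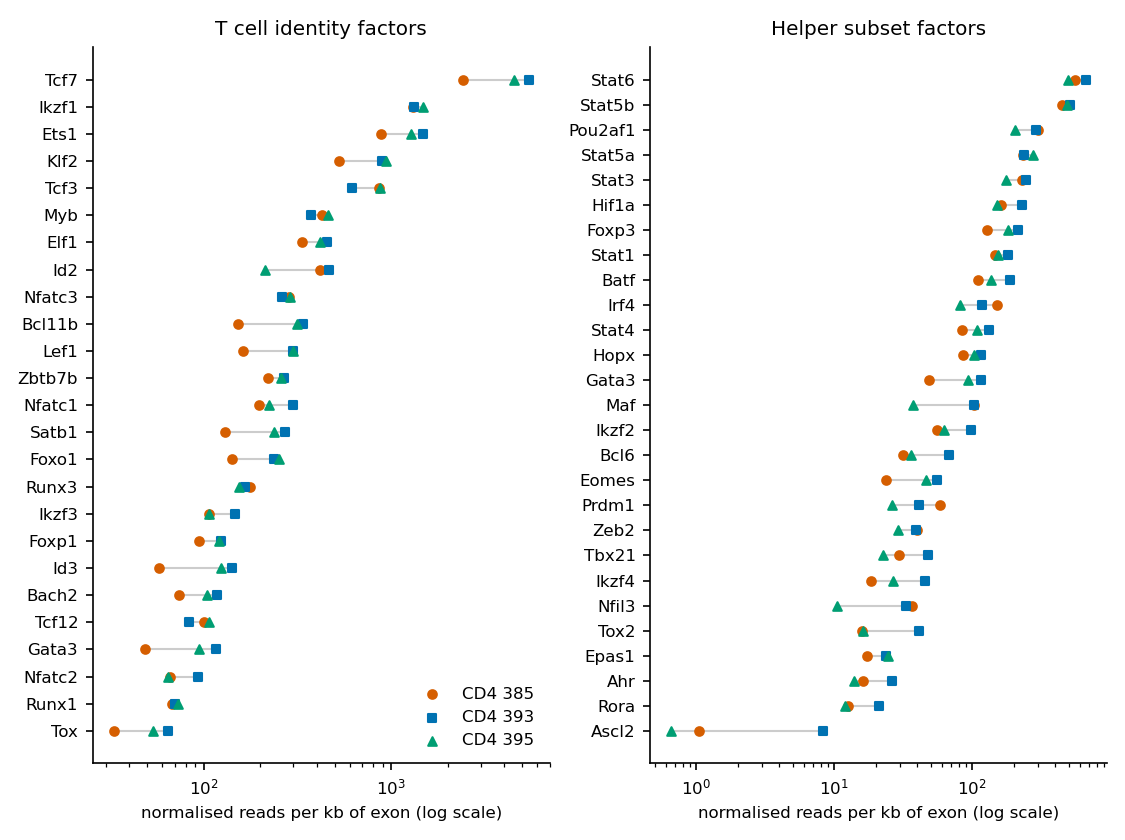
Normalised reads per kb of exon (log axis) of 25 T cell identity factors and 27 of the 28 helper subset factors in CD4 libraries 385, 393 and 395, with a grey line from the lowest to the highest library. Tcf7 stands above the other identity factors at 4121 per kb on average, and Stat6 leads the subset factors at 575.

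The T cell identity factors divided by spread. Of 25, 6 were variable (24.0%, against 11.7% of all genes) and 6 steady (24.0%, against 34.6%), and 13 had the order 393, 395, 385 (22.9% of all genes). Id3, an inhibitor of E proteins, had 104, 253 and 221 normalised reads, a spread of 2.43. Gata3, which T cells need in the thymus and Th2 cells need for their cytokines, had 193, 460.2 and 373, a spread of 2.38. Bcl11b, a guardian of T cell identity, and Satb1, a chromatin organiser of T cells, were also variable, at 2.22 and 2.09. All 4 were lowest in 385, as was Tcf7. Id2, the other variable factor of this list, was lowest in 395, with a spread of 2.20.

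The steady identity factors had spreads from 1.08 to 1.24 on the deposited scale. Runx1, a factor of T cells and of blood progenitors, had 812, 840.2 and 879 normalised reads, a spread of 1.08. Nfatc3, a calcineurin-regulated factor, had 3351, 3071 and 3391, a spread of 1.10. Ikzf1, Runx3, Zbtb7b and Myb were the other steady ones, at 1.14, 1.15, 1.23 and 1.24. Per T cell receptor reads, none of these 6 was steady, with spreads between 1.58 for Zbtb7b and 2.21 for Myb.

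The helper subset factors were led per kb by signal transducers. Stat6, which carries interleukin 4 signals, had 2460, 2953 and 2185 normalised reads (575 per kb). Stat5b, which carries interleukin 2 and 7 signals, had 2471, 2818 and 2690 (480.2 per kb) and was steady at 1.14. Pou2af1, a co-activator best known in B cells, had 767, 743 and 519 (265 per kb), and Stat5a had 1665, 1692 and 1986 (249.6 per kb), also steady at 1.19.

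The factors that name the helper lineages ranked lower per kb. Foxp3 was 29th of 67, at 175 ± 44.3 normalised reads per kb (SD, n = 3). Gata3 was 45th at 86.0 ± 34.3, Bcl6 of follicular helper cells 51st at 45.0 ± 19.8 and Tbx21 of Th1 cells 57th at 33.4 ± 13.1 per kb. Foxp3 was above each of the other 3 in every library. The 3 others overlapped with their neighbours: Gata3 was as low as 48.4 per kb in 385, while Bcl6 reached 67.7 in 393.

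Variable members of the subset list were not all of the same arrangement. Maf, a factor of follicular helper cells that macrophages also make, had 855, 859 and 305 normalised reads, high in 385 and 393 and low in 395, the arrangement of the macrophage genes. Ikzf4, the Eos partner of Foxp3, had 110.4, 272 and 159.6, highest in 393. Their spreads were 2.81 and 2.45 on the deposited scale and 4.18 and 1.32 per T cell receptor reads. Of 23 subset factors with a mean of 100 or more, 6 were variable (26.1%, against 11.7% of all genes) and 3 steady (13.0%, against 34.6%). The lowest of the 28 per kb was Ascl2, a factor of follicular helper cells, at 3.32.

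Factors induced by activation were mostly highest in 393, 12 of the 14 with a mean of 100 or more (33.9% of all genes). Of the 14, 4 were variable (28.6%, against 11.7% of all genes) and none steady (34.6% of all genes). Nr4a1, which T cell receptor signals switch on within hours, had 812, 2312 and 1078 normalised reads, a spread of 2.84 that became 1.66 per T cell receptor reads. Egr1, another early response gene, had 878, 1682 and 1286 normalised reads. Per 1000 T cell receptor reads its spread was 1.02, the smallest among the 67 factors. Irf8, a factor of dendritic cells, macrophages and B cells, was an exception in the list, with 997, 965 and 279.8 normalised reads and a spread of 3.55. Like Maf, it was low in 395 only. Myc, a driver of cell growth and division, had 2542, 1981 and 2477, highest in 385 and lowest in 393 as the proliferation genes were.

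**Figure D3:**
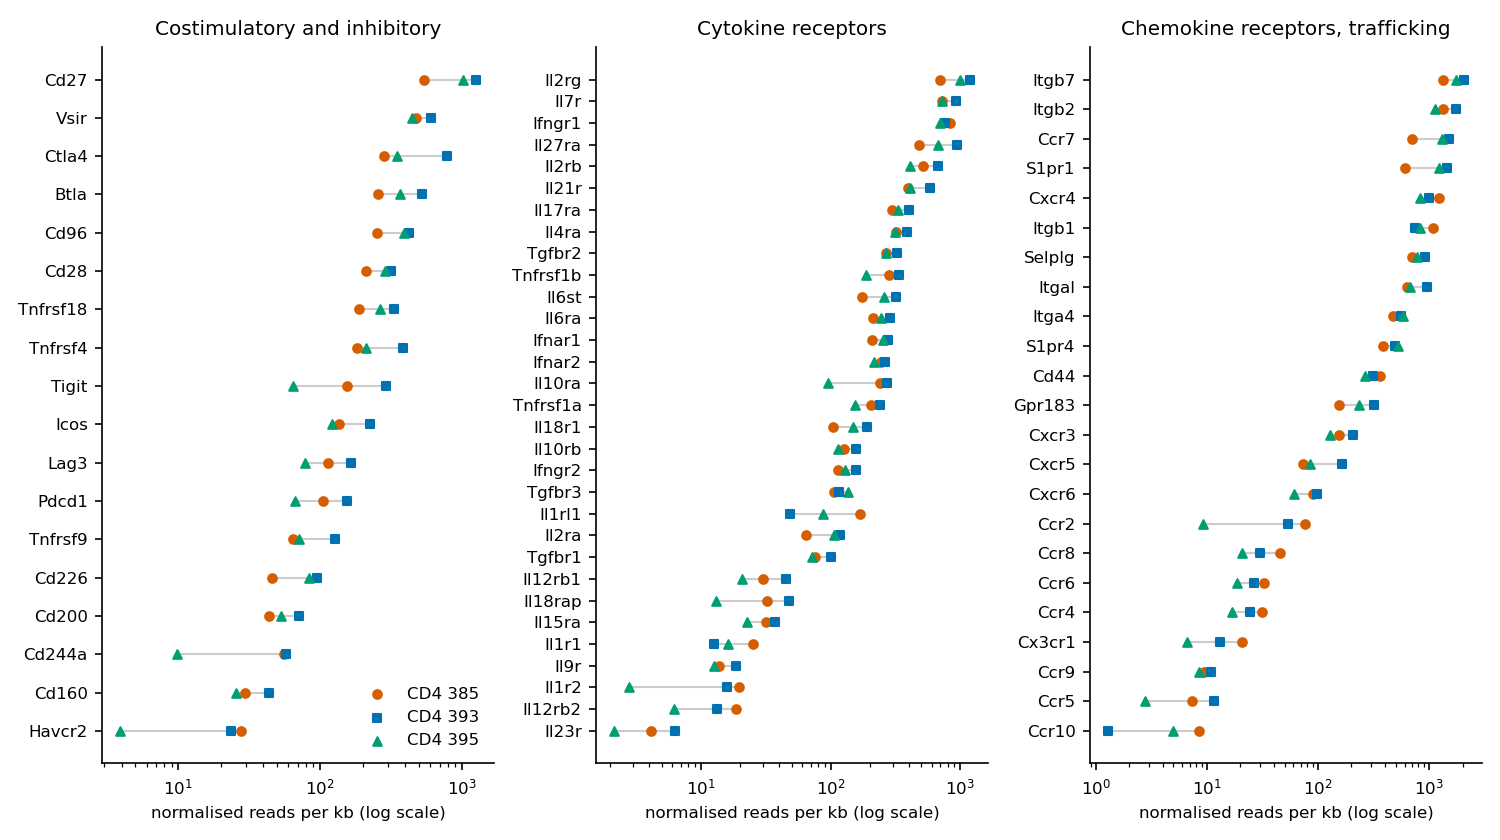
Normalised reads per kb of exon (log axis) of 18 costimulatory and inhibitory receptors, 31 cytokine receptors and 23 of the 24 chemokine receptors and trafficking genes in CD4 libraries 385, 393 and 395, with grey lines from lowest to highest. Cd27 (941), Il2rg (959) and Itgb7 (1708) lead their panels on average, and Ccr2 spans 519 normalised reads in 385 to 62.8 in 395 before division by length.

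Of 16 costimulatory and inhibitory receptors with a mean of 100 or more, 9 were variable (56.2%, against 11.7% of all genes). None was steady (34.6% of all genes), and all 16 were highest in 393 (33.9% of all genes). Cd27, a survival receptor of naive and memory cells, had 1266, 2950 and 2358 normalised reads (941 per kb, rank 567). Vsir, the checkpoint receptor VISTA, had 2388, 3052 and 2250 (511 per kb), and its spread of 1.36 was the smallest of the list. Ctla4, the inhibitory receptor of regulatory and activated cells, had 662, 1842 and 814 (475 per kb), high in 393 alone. Btla, an inhibitory receptor of lymphocytes, had 869.7, 1778 and 1257 (383 per kb).

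Cd28, the main costimulatory receptor, had 1293, 1940 and 1771 normalised reads and a spread of 1.50. The widest spreads were those of receptors low in 395. Cd244a, the 2B4 receptor of natural killer and some myeloid cells, had 271, 279.7 and 47.9 normalised reads, a spread of 5.74. Tigit, an inhibitory receptor of regulatory and memory cells, had 142, 269 and 59.6, a spread of 4.45. Per T cell receptor reads, Tigit had 2.88, 2.81 and 0.807 per 1000, so 395 stayed apart on that scale. Pdcd1 and Lag3, the inhibitory receptors PD-1 and LAG-3, averaged 109 ± 44.1 and 119 ± 43.6 normalised reads per kb (SD, n = 3 each), and both were lowest in 395.

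Cytokine receptors varied less, with 4 of 27 variable (14.8%, against 11.7% of all genes) and 4 steady (14.8%, against 34.6%). Il2rg, the chain shared by the receptors for interleukin 2, 4, 7 and others, had 1653, 2843 and 2369 normalised reads (959 per kb). Il7r, the interleukin 7 receptor of resting T cells, had 3385, 4313 and 3339 (789 per kb). Ifngr1, which binds interferon gamma, had 2368, 2176 and 1978 (764 per kb) and was steady at 1.20. Il27ra, the interleukin 27 receptor, had 1678, 3295 and 2330 (697 per kb). Ifngr1 was the only one of these 4 that was not highest in 393.

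Il2ra, the high-affinity interleukin 2 receptor chain of regulatory and activated cells, averaged 96.7 ± 28.6 normalised reads per kb (SD, n = 3), far below Il2rb at 529 ± 130.3 and Il2rg. The receptors for interleukin 12 and 23 were low: Il12rb2 averaged 12.6 and Il23r 4.18 normalised reads per kb, places 30 and 31 of 31. Il18rap, a chain of the interleukin 18 receptor, had 219, 319.8 and 88.3 normalised reads, a spread of 3.59, while its partner Il18r1 had a spread of 1.82. Il1rl1, the interleukin 33 receptor ST2 of some regulatory T cells and of mast cells, had 1148, 338 and 602 normalised reads, a spread of 3.39. It was highest in 385 and lowest in 393, opposite to Foxp3. Ifnar2, of the type I interferon receptor, had 814, 870.3 and 712 and was steady at 1.22.

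Trafficking genes were led per kb by integrins. Itgb7, which pairs with Itga4 to bind gut vessels, had 3676, 5722 and 4796 normalised reads (1708 per kb). Itgb2, the integrin chain of all white blood cells, had 4028, 5335 and 3435 (1398 per kb). Ccr7, which guides naive cells into lymphoid tissue, had 1400, 2974 and 2589 (1173 per kb), and S1pr1, which lets them leave it, had 1828, 4419 and 3711 (1090 per kb). Ccr7 and S1pr1 were both variable, at 2.12 and 2.42, and lowest in 385.

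Of the 17 trafficking genes with a mean of 100 or more, 5 were variable (29.4%, against 11.7% of all genes). None was steady (34.6% of all genes). Ccr2, a chemokine receptor of monocytes and of some effector T cells, had 519, 359.9 and 62.8 normalised reads, a spread of 8.15 with the same low in 395 as the macrophage sum. Itga4 had 6544, 7848 and 8199, which lay just above the limit for steady. Selplg, the selectin ligand, had 2982, 3909 and 3311, a spread of 1.31. The receptors linked to helper subsets were lower per kb: Cxcr3 averaged 163 ± 40.4, Cxcr5 107 ± 49.1, Ccr6 26.0 ± 7.03 and Ccr4 24.2 ± 7.21 normalised reads per kb (SD, n = 3 each).

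Of 38 cytokines and ligands, 31 were in the table and 12 had a mean of 100 or more. The abundant ones were membrane or constitutive products. Ltb, the lymphotoxin beta chain, had 1588, 3238 and 2887 normalised reads (1696 per kb, rank 253, or 542 by coding length). Mif, a cytokine made by many cell types, had 1188, 927 and 1367 (1558 per kb), and Cd40lg came next at 426 per kb. Tgfb1, an inhibitory cytokine of regulatory and other cells, had 1887, 1761 and 1711 (354 per kb) and was the steady member, at 1.10. Ltb was lowest in 385 where Tgfb1 was highest.

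Of the 12, 8 were variable (66.7%, against 11.7% of all genes). Il1b, an inflammatory cytokine of monocytes, had 193, 134 and 23.4 normalised reads, and Il18, made by macrophages and other cells, had 267, 289.7 and 77.7. Both were low in 395, with spreads of 7.97 and 3.70. Tnfsf10, the death ligand TRAIL, had 239, 308 and 298, a spread of 1.29.

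The cytokines that define helper subsets were at few reads, and they are given here by read count after their values were seen. Il2, the T cell growth factor, had 6, 9 and 3 reads in 385, 393 and 395, and Il4, of Th2 and follicular helper cells, had 10, 6 and 4. Il17f of Th17 cells had 2, 3 and 2 reads. Ifng, the interferon of Th1 cells, had 21, 40 and 17 reads. In normalised reads the 95% Poisson intervals of Ifng were 11.1 to 27.5 in 385, 31.8 to 60.7 in 393 and 10.5 to 29.0 in 395, so that only 393 stood apart beyond counting error.

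Il21, the follicular helper cytokine, had 43, 110 and 24 reads, and Il10, an inhibitory cytokine, 24, 43 and 5. For Il21 the intervals, in normalised reads, were 26.6 to 49.6, 101 to 148 and 16.4 to 38.0, again with 393 apart. For Il10 the intervals were 13.2 to 30.6, 34.7 to 64.5 and 1.73 to 12.4, which do not overlap. These intervals cover counting error only. Il3, Il5, Il9, Il13, Il17a, Il22 and Csf2 were not analysed here.

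**Figure D4:**
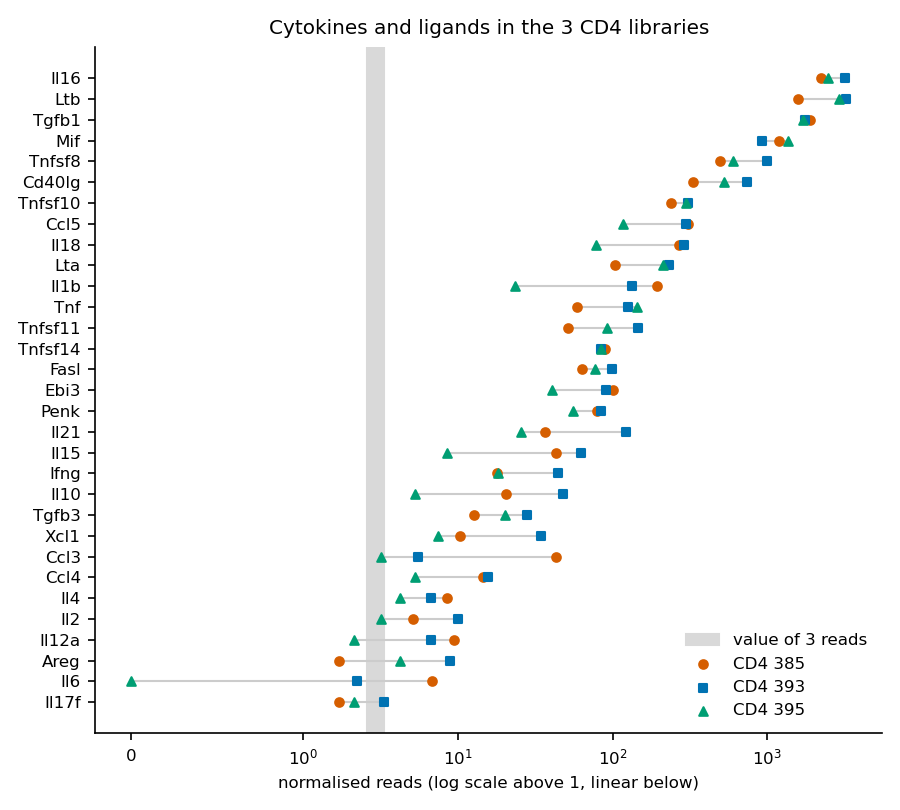
Normalised reads of 31 cytokines and ligands in CD4 libraries 385, 393 and 395 (axis logarithmic above 1 and linear below), with a grey line from lowest to highest and a grey band at the value of 3 reads (2.57 to 3.34). Il16, Ltb and Tgfb1 exceed 1500 in every library, while Il17f, with 2 or 3 reads, lies in or below the band.

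Genes of regulatory T cells were, on the deposited scale, mostly highest in 393. This held for 15 of the 17 with a mean of 100 or more, of 24 (33.9% of all genes). Of the 17, 9 were variable (52.9%, against 11.7% of all genes) and 1 steady (5.88%, against 34.6%). The sum of all 24 was 7553, 11842 and 7811 normalised reads. Izumo1r, the folate receptor 4 of regulatory and follicular helper cells, had 670.3, 1493 and 1069 normalised reads (464 per kb), second to Ctla4. Tnfrsf18, the costimulatory receptor GITR, had 286, 507 and 405 (262 per kb), and Tnfrsf4, the receptor OX40, had 248, 527 and 289 (260.0 per kb). All were highest in 393 and lowest in 385.

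Per T cell receptor reads, 5 of the 17 regulatory genes were steady and 4 variable, where 5.91% of all 9924 genes were steady and 55.1% variable. The steady ones were Foxp3 (1.14), Tnfrsf18 (1.09), Il2ra (1.16), Izumo1r (1.15) and Lrrc32 (1.22), the docking protein for latent TGF-beta. Ikzf2 and Ikzf4, the Helios and Eos factors that accompany Foxp3, had spreads of 1.34 and 1.32. Ctla4 had a spread of 1.75 on that scale. The variable ones were Il1rl1 (6.54), Entpd1 (5.16), Tigit (3.52) and Nrp1 (2.37). Of the 17, 11 had the order 393, 395, 385 of the T cell receptor sum, and dividing by it tends to narrow such genes. The contrast with all genes thus follows in part from the scale.

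Entpd1, the ectonucleotidase CD39 of regulatory T cells and macrophages, had 480.2, 448 and 138 normalised reads. Its spread was 3.45, the same direction as the macrophage sum, which was 5.05 times as high in 385 as in 395. Capg, an actin-capping protein, had 525, 615 and 516 normalised reads and was the steady member on the deposited scale, at 1.19.

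Genes of follicular helper cells were variable in 9 of the 12 cases with a mean of 100 or more (75.0%, against 11.7% of all genes). Of the 12, 11 were highest in 393 (33.9% of all genes). Slamf6, a receptor that strengthens contact with B cells, had 1246, 3208 and 1954 normalised reads (197 per kb). Sh2d1a, the adaptor SAP that acts behind it, had 152, 394 and 294, a spread of 2.59. Both had spreads near 1.3 per T cell receptor reads, at 1.33 and 1.35. Btla, Cd200 and Izumo1r were steady on that scale, while Pdcd1 (2.37), Maf (4.18) and Pou2af1 (2.21) were variable with 395 the lowest.

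The Th1, Th2 and Th17 lists were small. Among Th1 genes, Cxcr3, a chemokine receptor of effector cells, had 267, 358 and 220.3 normalised reads (163 per kb), and Il18r1 had 508, 924 and 719 (149 per kb). Stat4, which carries interleukin 12 signals, had 329, 509 and 421 (108 per kb). Per T cell receptor reads Il18r1 had the smallest spread of all subset genes, 1.06.

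Among Th2 genes Il4ra, the interleukin 4 receptor chain, had 1924, 2349 and 1899 normalised reads (343 per kb) and was steady at 1.24. Ptgdr2, the prostaglandin receptor CRTH2 of Th2 cells, averaged 1.41 normalised reads per kb. Among Th17 genes Stat3, which carries interleukin 6 signals, had 2200, 2340 and 1682 normalised reads and made up 78.1% of the list's sum, and Il1r1 had 161, 80.2 and 102, highest in 385. None of the 4 Th17 genes with a mean of 100 or more was variable or steady.

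Over the 40 subset genes of these 5 lists with a mean of 100 or more, 19 were variable and 2 steady on the deposited scale. Of all 9924 genes, 11.7% were variable and 34.6% steady on that scale. Per T cell receptor reads, 10 of the 40 were variable and 9 steady, where 55.1% of all genes were variable and 5.91% steady. As with the regulatory genes, this contrast with all genes follows in part from the scale. Over pairs of libraries, fewer variable and more steady genes follow in part from the measure, since 2 libraries spread less than 3. Without 385, 5 were variable and 19 steady on this second scale, and without 393, 10 were variable and 13 steady. Without 395, 3 were variable and 20 steady. The shares of all genes over pairs of libraries were not computed on this scale.

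**Figure D5:**
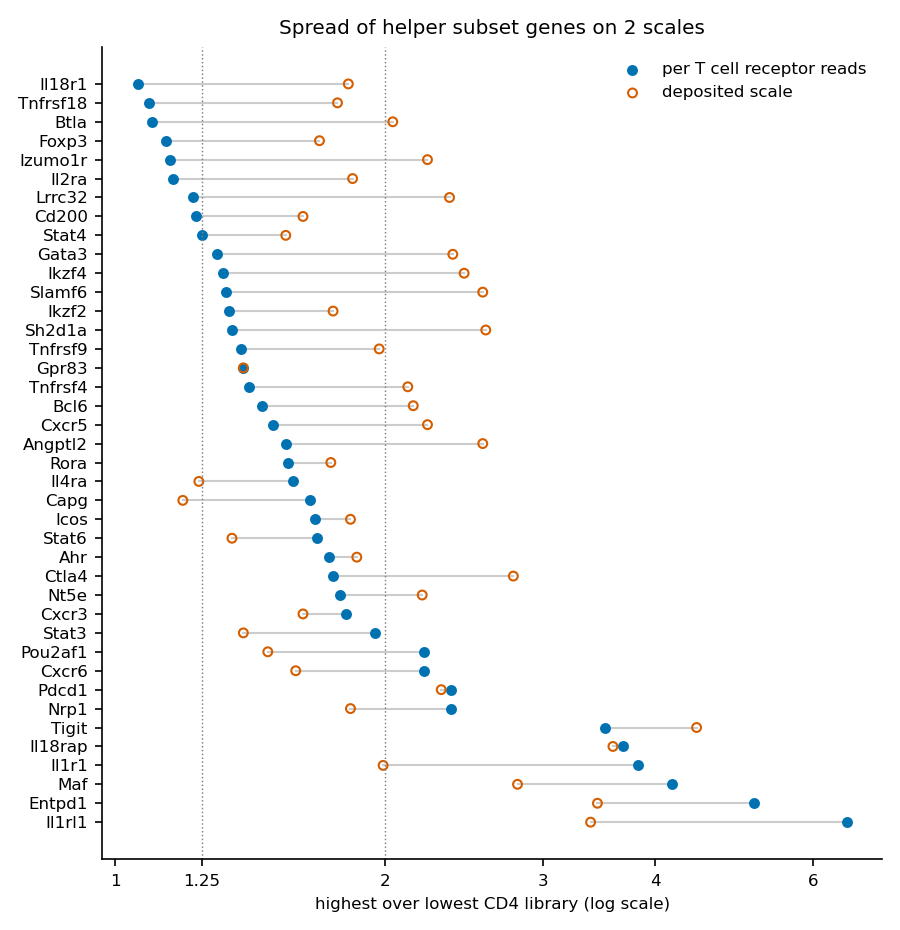
Highest over lowest CD4 library (log axis, each value plus 1) for 40 helper subset genes, as open circles on the deposited scale and filled circles per T cell receptor reads, joined by grey lines. Dotted lines mark the limits for steady and for variable genes. Foxp3 goes with the genes near 1 on the second scale (1.14), and Il1rl1 (6.54) and Entpd1 (5.16) are at the far end.

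Genes of naive and recirculating cells were lowest in 385 for 10 of 11 members (33.3% of all genes), with a sum of 28069, 50578 and 42391 normalised reads. Of the 11, 5 were variable (45.5%, against 11.7% of all genes) and none steady (34.6% of all genes). Tcf7, S1pr1 and Ccr7, given above, were among the variable ones. Lef1, a partner of Tcf7, averaged 253 ± 79.5 per kb (SD, n = 3). Actn1, a cytoskeletal protein, had 2811, 3866 and 2981 normalised reads, a spread of 1.37. Per T cell receptor reads none of the 11 was variable (55.1% of all genes). Of the 11, 8 had the order of the T cell receptor sum, so this too follows in part from the scale.

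Memory and effector genes were arranged otherwise, with 10 of 13 lowest in 395 (20.5% of all genes) and a sum of 19508, 18193 and 14141 normalised reads. Itgb1, an integrin chain of memory cells and many other cells, had 4416, 3014 and 3391 normalised reads (884 per kb). S100a11, a calcium-binding protein, had 443, 474 and 298 (792 per kb), and Lgals1, the lectin galectin-1, had 752, 840.2 and 502 (773 per kb). Vim, the intermediate filament vimentin, had 2881, 2814 and 2129 (549.9 per kb).

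The macrophage list was also lowest in 395, while Itgb1 was lowest in 393. The part of macrophages in the levels of memory and effector genes was not tested. S100a6, a relative of S100a11, had 342, 304 and 121 normalised reads, a spread of 2.80. Cd44, the hyaluronan receptor that rises on memory cells, had 2449, 2117 and 1811, a spread of 1.35. Ly6c2 had 1053, 380.0 and 221 normalised reads and its near-identical neighbour Ly6c1 had 319, 504 and 588, and how reads were split between them is uncertain.

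Of 16 genes for angiotensin, adrenergic and corticosteroid signalling, 9 were in the table, and Agtr1b, Agtr2, Agt, Mas1, Chrna7 and Chat were among those not analysed here. Agtr1a, the main angiotensin II receptor of mouse tissues, had 128, 69.1 and 96.8 normalised reads in 385, 393 and 395, from 150, 62 and 91 reads. It averaged 35.2 ± 10.7 normalised reads per kb (SD, n = 3), rank 9762 of 17568. It was highest in 385 and lowest in 393, the order of the proliferation and erythroid sums and opposite to the 4 CD4 markers. Of all 9924 genes, 28.6% had this order. The Poisson intervals of Agtr1a were 109 to 151 normalised reads in 385, 53.0 to 88.6 in 393 and 78.0 to 119 in 395. Only 385 and 393 were apart beyond counting error. The interval of 395 overlapped both, so its place in the order is uncertain. Whether T cells were the source of Agtr1a was not tested.

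Lnpep, the aminopeptidase that binds angiotensin IV, had 3317, 3475 and 3568 normalised reads (244 per kb) and was steady at 1.08. Atp6ap2, the prorenin receptor and a proton pump accessory, had 883, 724 and 768 (302 per kb), also steady at 1.22. Nr3c1, the glucocorticoid receptor, had 1579, 1343 and 1523 (193 per kb) and was steady at 1.18. These 3 of the 5 members with a mean of 100 or more were steady (60.0%, against 34.6% of all genes), and none was variable.

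Ace, the angiotensin-converting enzyme, and Adrb1, the beta-1 receptor, averaged 10.8 and 15.3 normalised reads per kb and were uneven. Their 95% Poisson intervals did not overlap between the libraries: Ace had 105 to 146 normalised reads in 385, 28.1 to 55.5 in 393 and 2.99 to 15.3 in 395, and Adrb1 had 78.2 to 114, 33.7 to 63.3 and 7.37 to 23.7. Both had the order 385, 393, 395, which the neutrophil sum and Ighm also had. The share of all genes with this order was not computed, and the source of Ace and Adrb1 was not tested. Nr3c2, the mineralocorticoid receptor, had 20, 18 and 16 reads.

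Housekeeping genes were steady in 5 of 15 cases (33.3%, against 34.6% of all genes). Actb, the cytoplasmic actin, had 32541, 35905 and 33216 normalised reads and B2m, the light chain of MHC class I, had 14151, 15621 and 14544, both with a spread of 1.10. Of the 15, 1 was variable (6.67%, against 11.7% of all genes).

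In the 3 CD8 libraries spread was measured in the same way. Among 9715 genes with a mean of 100 or more in both cell types, 1080 were variable in CD4 and 1485 in CD8 (15.3% of the genes tested). Of these, 589 were variable in both, which is 54.5% of those variable in CD4 and 39.7% of those variable in CD8. Of the 9715, 3421 were steady in CD4 and 2803 (28.9%) in CD8. Over all 9924 genes of the CD4 libraries, 11.7% were variable and 34.6% steady. Steady in both were 1548 genes, 45.2% of those steady in CD4 and 55.2% of those steady in CD8. Number 395 labels a library of each cell type, so the libraries may share a mouse.

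Single genes differed in this. Csf1r, the receptor for macrophage colony-stimulating factor, had spreads of 5.56 in CD4 and 3.76 in CD8, and Hmox1, the haem-degrading enzyme of red pulp macrophages, 6.75 and 4.04. Ccr2 had 8.15 in CD4 and 1.65 in CD8. Runx1 had 1.08 and 1.03, and Tgfb1 1.10 and 1.18. Whether the spread of a gene differs between the cell types was not tested.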

How the data were processed

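RNA from sorted CD4+ and CD8+ spleen cells was extracted with Trizol and made into stranded mRNA libraries, per the labels' protocols. The submitters' processing notes name STAR 2.7.5c, featureCounts 2.0, DESeq2 and GRCm39. The deposited values, a normalised signal per gene, are read counts divided by 1 size factor per library: all values in the CD4 columns gave whole reads within a tolerance of 0.001 (100.0%). The factors matched median-of-ratios factors recomputed from those reads. The deposited table holds 17832 genes with at least 11 reads over the 6 libraries.

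From these values the mean, SD, highest-over-lowest ratio on value plus a pseudocount of 1, level per kb and rank were computed with Python 3.11.15, pandas 2.3.3 and numpy 2.4.6. Exon lengths came from GENCODE M21 of GRCm38 by symbol (17322 genes) or synonym (246), an annotation of an older build. Poisson intervals at 95% used scipy 1.17.1. edgeR 4.0.16 gave coefficients of variation and TMM factors as alternatives. No contrast was tested, so no p-value is given.

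The members and the 30 gene lists (375 genes, 358 in the table) were chosen with earlier results of these data known. Library values are given for the 4 markers and, per list, up to 4 genes highest per length and up to 2 with the largest and 2 with the smallest spread at a mean of 100 or more. Genes given with library values outside that rule, such as low cytokines, Egr1, Agtr1a, Nr3c2 and Ly6c1, were chosen after their values were seen. A few list members counted in the sums are not reported here by name.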

Additional observations from a re-analysis of the deposited data

How the results depend on the processing

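Of 112 alternative values, 84 stayed within the limits set for a stable value and 28 moved. Scaling by summed reads (CPM) or TMM factors, pseudocounts of 0.1 and 10, a minimum mean of 50 and a coefficient of variation beyond counting error moved none of the counts of variable or steady genes by over 1.5 times.

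Scaled to the summed T cell receptor list, 5468 genes were variable (1162 on the deposited scale) and 587 steady (3438), and 9321, 219 and 384 were highest in 385, 393 and 395 (3775, 3367 and 2782). With a minimum mean of 500 there were 431 variable and 2247 steady genes, and 2365, 1736 and 1577 were highest in 385, 393 and 395. With no minimum 5906 were variable, and 6095, 7008 and 4729 were highest. These minimums change how many genes are counted. By edgeR's biological coefficient of variation, over 0.35 for variable and under 0.1 for steady, 657 genes were variable and 0 steady, the cause of which was not tested. No p-value belongs to these counts.

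Leaving out each library in turn gave 511 to 706 variable and 4837 to 6883 steady genes, since 2 libraries spread less than 3. Among the 40 subset genes per T cell receptor reads it gave 13 to 20 steady (9 with all) and 3 to 10 variable (10 with all). By coding length Cd40lg ranked 3245 and Ltb 542. After scaling both cell types to the T cell receptor list, 92.6% of the genes variable in CD4 were variable in CD8 too (54.5% on the deposited scale), but 81.3% of all 9715 genes were variable in CD8 after this scaling. Depth limits the cytokines at under 10 reads. No paired analysis was possible because the CD4 and CD8 labels share 1 number (395) and no contrast was tested.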

Other observations

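Immunoglobulin constant regions and genes of progenitors, mast cells and basophils, 2 lists of 12 genes each made after the values were seen, had their highest sums in CD4 library 385. The immunoglobulin sum was 232903, 162421 and 132050 normalised reads in 385, 393 and 395. Within it the classes were arranged differently. Ighg1, Ighg2b and Ighg2c, of IgG1, IgG2b and IgG2c, had 6985, 614 and 243, then 17610, 2650 and 1657, then 9340, 2416 and 731 normalised reads, all highest in 385 and lowest in 395. Ighg3, of IgG3, had 1608, 3655 and 1933, highest in 393, while Ighm had a spread of 1.33. Variable segments were uneven too: Ighv5-6 had 5241, 120.3 and 197 normalised reads and Igkv5-39 had 9213, 1463 and 579.9. Segments and constant regions of a family are alike in sequence, so their split is uncertain.

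The progenitor, mast cell and basophil list summed to 5551, 2759 and 3208 normalised reads. Kit, the stem cell factor receptor, had 2106, 1420 and 2266 and was highest in 395. The basophil proteases Prss34 and Mcpt8 had 578, 113 and 2.13, and 269, 65.7 and 4.26. Cpa3, the mast cell carboxypeptidase, had 170.4, 90.3 and 30.9. Il1rl1, which these cells also make, had 1148, 338 and 602, highest in 385 and lowest in 393. The sum of the list was also lowest in 393, but it includes Il1rl1 and Kit, which were both lowest there. Every other gene of the list, the proteases and Cpa3 among them, had the order 385, 393, 395. Of all 9924 genes, 38.0% were highest in 385 and 20.5% lowest in 395. The share of all genes with this full order was not computed. The part of these cells in the level of Il1rl1 was not tested.

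The steadiest genes with a mean of 500 or more were Glyr1, a chromatin-bound dehydrogenase homologue, with 2009, 2007 and 2011 normalised reads, and Nek9, a mitotic kinase, with 1753, 1750 and 1749. Ik, a splicing factor, had 2084, 2091 and 2077. At the other end, S100a9, a calcium-binding protein of neutrophils and monocytes, had 1774, 303 and 26.6, and Ccr3, the eotaxin receptor, had 699, 897 and 96.8. The highest genes per kb were Igkc at 91104, mt-Co1 at 63211, Ighm at 49081 and Eef1a1 at 47403 normalised reads per kb. Of these, mt-Co1, a mitochondrial respiratory subunit, was highest in 395.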
